A study of Mus musculus with 9 samples.

Results

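The genes described here are 35 members of the unfolded protein response and the integrated stress response. They were picked by name, with earlier results of these data known, from the 24964 genes of a count table of mouse heart RNA. Of these, 34 were found under their own symbol, and Vimp was found under its current symbol Selenos. The study sequenced RNA in bulk from 9 hearts of male C57BL/6JR mice, 8 weeks old, with 3 mice in each of 3 groups. In both infarct groups ligation of the left anterior descending artery with a silk suture, under isoflurane, gave a myocardial infarction (MI), and the hearts were taken 7 d or 28 d later. The sham group had the same thoracotomy under isoflurane without the ligation, and the time at which its hearts were taken is not given in the sources used here. All groups therefore share strain, sex, anaesthesia and open-chest surgery. The tissue is given only as heart, so whether a sample held scar, border or remote muscle is not given in the sources used here.

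Proteins that are secreted or sit in membranes fold in the endoplasmic reticulum (ER). When unfolded protein collects there, 3 sensors in the ER membrane start the unfolded protein response. IRE1 (gene Ern1) splices the Xbp1 transcript so that it encodes an active transcription factor, ATF6 is cut in the Golgi to release a transcription factor, and PERK (Eif2ak3) phosphorylates the translation factor eIF2. GCN2 (Eif2ak4) senses amino acid shortage and phosphorylates the same factor, which is why this arm is called the integrated stress response. It lowers translation in general while the transcription factor ATF4 is made, and ATF4 induces genes of amino acid supply, redox balance and, through CHOP (Ddit3), cell death. Much of this control acts on splicing, cleavage, phosphorylation and translation, which counts per gene do not measure. In the heart the response has mostly been studied in cardiomyocytes under ischaemia and overload and in fibroblasts that secrete matrix.

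Letters of the known response elements were searched in the promoters, on both strands, because the elements define the arms: the ER stress element ERSE (a CCAAT box and, 9 bases on, the letters CCACG) and its variant ERSE-II (the box turned to the other strand, 1 base from CCACG), both used by ATF6 and XBP1, the element UPRE (TGACGTGG), and the amino acid response element CARE (TGATGNAAN), which ATF4 uses. Windows ran from 250 bases before to 50 after the RefSeq start of a gene on GRCm38, and 31 of the 35 members had one (not Atf6, Hyou1, Ero1l and Manf). ERSE was found in 5 of 31 members, against 0.161% of the 11176 tested genes with a window. ERSE-II was found in 1 member, against 0.0716% of those genes. CARE was found in 5 members, against 2.78%, and UPRE in 0 members, against 1.02%. The members were picked by name as genes of these responses, so the shares do not test for an excess. ERSE, ERSE-II and UPRE share the letters CCACG, and no sites overlap in the printed stretches. The stretches below carry ERSE in capitals, on either strand, and run 5′ to 3′ on the strand of the gene.
Calr, chr8:84847055-84847113 (minus strand): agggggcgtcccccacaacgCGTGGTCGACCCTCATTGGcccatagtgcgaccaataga
Canx, chr11:50325780-50325838 (minus strand): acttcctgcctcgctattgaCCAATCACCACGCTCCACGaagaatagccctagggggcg
Pdia6, chr12:17266471-17266529 (plus strand): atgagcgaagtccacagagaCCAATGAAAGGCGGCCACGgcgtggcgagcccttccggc
Creld2, chr15:88819500-88819558 (plus strand): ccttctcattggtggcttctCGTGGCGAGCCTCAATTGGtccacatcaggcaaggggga
Syvn1, chr19:6046512-6046570 (plus strand): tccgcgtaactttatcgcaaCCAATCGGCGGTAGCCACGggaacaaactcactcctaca

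These sites begin 162 bases before the start in Calr, 145 in Canx, 98 in Pdia6, 126 in Creld2 and 44 in Syvn1. The next stretches carry CARE in capitals. The stretch of Herpud1 also carries ERSE-II, which is the second of its capital runs.
Herpud1, chr8:94386296-94386407 (plus strand): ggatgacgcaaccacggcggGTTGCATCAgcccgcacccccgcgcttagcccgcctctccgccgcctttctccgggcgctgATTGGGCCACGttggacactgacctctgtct
Asns, chr6:7693214-7693242 (minus strand): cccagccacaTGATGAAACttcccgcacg
Chac1, chr2:119351028-119351076 (plus strand): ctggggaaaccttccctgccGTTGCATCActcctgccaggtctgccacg
Trib3, chr2:152344029-152344057 (minus strand): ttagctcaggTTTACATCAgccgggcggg
Fgf21, chr7:45615602-45615650 (minus strand): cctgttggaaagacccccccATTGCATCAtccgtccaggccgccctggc

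CARE begins 113 bases before the start in Herpud1, 23 in Asns, 194 in Chac1 and 140 in Fgf21, and just after the RefSeq start in Trib3. ERSE-II of Herpud1 begins 52 bases before the start. These matches are letters in a window, and binding was not measured. Over all tested genes with a window, 7 of the 18 with ERSE rose at 7 d (38.9%) and 4 fell. Of the 311 with CARE, 134 rose at 7 d (43.1%) and 109 fell (35%), next to 39.0% and 35.4% of all tested genes.

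Library totals lay between 12351525 and 13629120 counts in sham hearts, 18355720 and 19238101 at 7 d and 15300344 and 15770389 at 28 d. Counts of the members made up 0.241 to 0.244% of each sham library, 0.338 to 0.365% at 7 d and 0.270, 0.273 and 0.331% in the 28 d libraries. Cell markers moved with the groups. The 6 cardiomyocyte markers summed to 85757 to 88812 CPM (counts scaled by the TMM-scaled library total) in sham, 15591 to 19906 at 7 d and 32840 to 54332 at 28 d. The 6 fibroblast markers summed to 2103 to 2161 CPM in sham, 34835 to 45761 at 7 d and 5967 to 11869 at 28 d. The 6 monocyte and macrophage markers summed to 469 to 524, 3743 to 4714 and 789 to 1276 CPM. The 5 endothelial markers summed to 1716 to 1771, 699 to 786 and 476 to 817 CPM. None of these markers was at 0 in all libraries. Their part in the results below was not tested, and in bulk tissue fewer cells of a type and less RNA per cell cannot be told apart.

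Levels below are CPM of the TMM-scaled library total, listed for libraries 1, 2 and 3 of each group. Differences are log2 fold changes (log2 FC) ± standard error from edgeR, with p adjusted over the 14347 genes tested, and "rose" or "fell" means an adjusted p under 0.05. At 7 d the largest differences among the members were in enzymes that make serine, asparagine and folate intermediates, in Pdia5 and in Edem1, all higher than in sham hearts, and in Herpud1, which was lower. Of 34 members tested, 19 rose at 7 d, 6 fell and 9 did not pass. Over all genes tested 39.0% rose and 35.4% fell, so the 55.9% of members that rose stand above that share, the 17.6% that fell stand below it, and the 73.5% called in either direction lie at the general 74.4%. The members' median log2 FC was 0.53, against 0.064 over all genes tested. Members were picked with earlier results of these data known, so the shares and medians here and below do not test for an excess. Scaled by library size alone, 25 members rose and 4 fell at 7 d, and that scaling shifts the median of all genes by 0.33. The groups did not overlap in 28 of 34 members (82.4%), against 80.8% of all genes. With the 3 sham libraries summed to 1, 15 rose at 7 d (Xbp1, Atf5, Chac1 and Pdia4 lost) and 5 fell (Hyou1 lost).

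At 28 d, against the same sham hearts, Phgdh, Mthfd2, Asns and Psat1 were furthest above sham, followed by Chac1 and CHOP (Ddit3), and most ER folding genes lay closer to sham than at 7 d. There, 17 members rose, 5 fell and 12 did not pass. The background was 29.5% higher and 25.6% lower, so the 50.0% of members that rose stand above it and the 14.7% that fell below it. The share called in either direction was 64.7%, against 55.1%. The median log2 FC was 0.39, against 0.054 over all genes. As at 7 d, these shares do not test for an excess. Groups did not overlap in 27 members (79.4%), against 66.4% of all genes. Scaling by library size alone gave 22 higher and 0 lower, with a shift of 0.25 in the median of all genes. With the sham libraries summed to 1, which differed from each other by 1.64 to 1.76 times sampling noise (chi-square per degree of freedom), 7 rose (Atf5, Ddit3, Asns, Phgdh, Mthfd2, Ero1l and Edem1) and 0 fell.

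**Figure D1:**
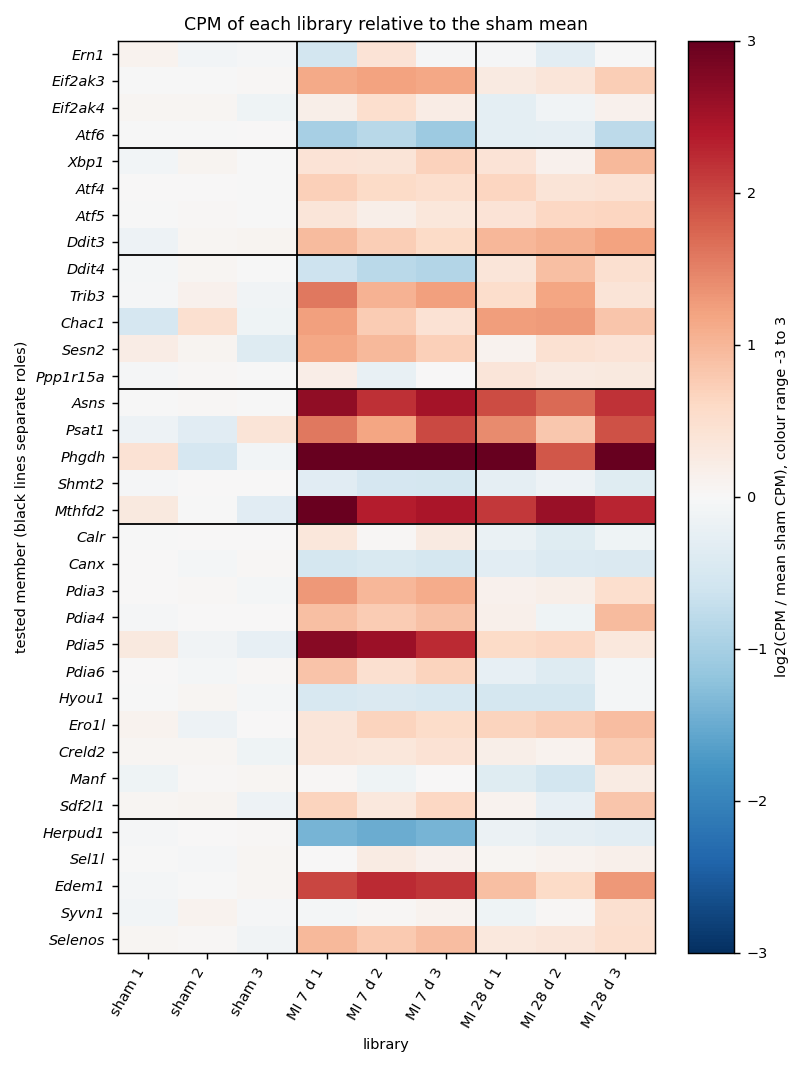
Each row is a tested member and each column a library. Colour is log2 of the library's CPM over the mean sham CPM, on a scale that ends at -3 and 3, so the darkest cells of Phgdh pass the end of the scale. The 3 columns at 7 d are alike in most rows, while library 3 at 28 d is redder than libraries 1 and 2 in rows such as Pdia4, Xbp1 and Sdf2l1.

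**Figure D2:**
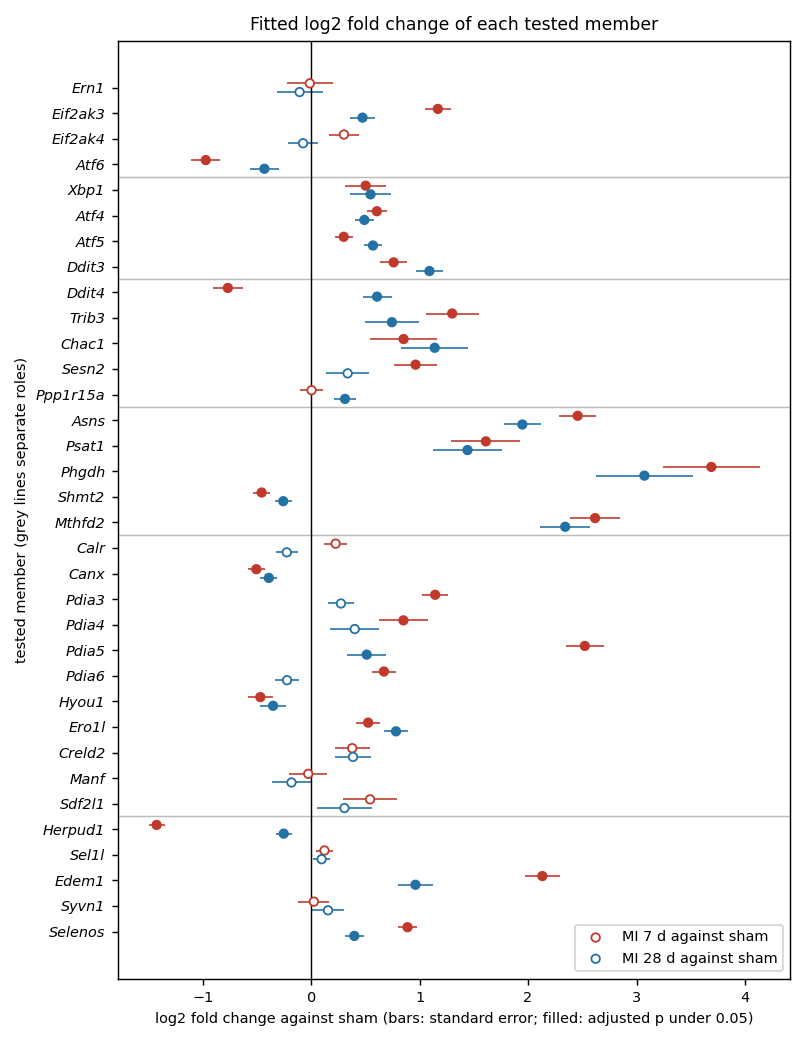
Points are fitted log2 fold changes of each tested member against sham, red at 7 d and blue at 28 d, with bars of 1 standard error and filled points where the edgeR adjusted p is under 0.05. Phgdh lies furthest right at both times (3.69 and 3.07), Herpud1 furthest left at 7 d (-1.43), and Ddit4 lies on opposite sides of 0.

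Of the 4 sensors and kinases, PERK rose and ATF6 fell at both times, and IRE1 and GCN2 did not pass against sham. Eif2ak3 (PERK) stood at 15.9, 16.1 and 16.4 CPM in sham, 35.6, 37 and 36.1 at 7 d and 19.4, 20.9 and 26.8 at 28 d. All 7 d and 28 d libraries were above all sham libraries, 2.25-fold at 7 d (log2 FC 1.17 ± 0.12, edgeR adjusted p = 1.19e-05) and 1.39-fold at 28 d (log2 FC 0.47 ± 0.12, edgeR adjusted p = 0.00796). Atf6 went the other way, with 232, 234 and 237 CPM in sham, 117, 131 and 110.3 at 7 d and 193, 193 and 136 at 28 d. Its infarct libraries were all below sham, 1.96-fold lower at 7 d (log2 FC -0.97 ± 0.14, edgeR adjusted p = 1.09e-04), and at 28 d the third library was near the 7 d level while the other two were close to each other (log2 FC -0.43 ± 0.13, edgeR adjusted p = 0.0212). The call of Atf6 at 28 d was lost without sham 3 (log2 FC -0.44, edgeR adjusted p = 0.0507) and with library size alone (-0.19, edgeR adjusted p = 0.167), and without 28 d library 3 the difference was -0.28 (edgeR adjusted p = 0.0261). Ern1 (IRE1) had 16.2, 14.3 and 14.7 CPM in sham, 10.3, 19.9 and 14.6 at 7 d and 14.8, 12.2 and 15 at 28 d. Its 7 d values spread on both sides of sham (log2 FC -0.012 ± 0.21, edgeR adjusted p = 0.962, and log2 FC -0.11 ± 0.21, edgeR adjusted p = 0.689 at 28 d). Eif2ak4 (GCN2) had 16, 16 and 14 CPM in sham, 17.2, 21.7 and 17.8 at 7 d and 12.6, 14.3 and 16.7 at 28 d. It did not pass at 7 d (log2 FC 0.30 ± 0.14, edgeR adjusted p = 0.0666) or at 28 d (log2 FC -0.075 ± 0.14, edgeR adjusted p = 0.665). At 7 d it passed in 6 of the 19 alternatives described below. Among them were library size alone (log2 FC 0.64, edgeR adjusted p = 0.00423) and leaving out 28 d library 3 (0.30, edgeR adjusted p = 0.0401). It also passed with limma voom, with the stricter filter and with only the libraries compared.

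All 4 transcription factors rose at both times, and none of their infarct libraries fell within the sham range. Over all genes 39.0% rose at 7 d and 29.5% at 28 d, and 80.8% and 66.4% did not overlap with sham. Atf4, the factor translated when eIF2 is phosphorylated, had 98.1, 96.8 and 95.5 CPM in sham, 159.8, 145 and 137 at 7 d and 151, 127 and 130.4 at 28 d. That is 1.52-fold at 7 d (log2 FC 0.61 ± 0.090, edgeR adjusted p = 1.78e-04) and 1.4-fold at 28 d (log2 FC 0.49 ± 0.090, edgeR adjusted p = 0.00156). Atf5, which is also controlled through eIF2 and acts on mitochondrial stress genes, had 52.3, 54 and 52.3 CPM in sham, 67.8, 60.2 and 67.4 at 7 d and 70.4, 81.8 and 83.2 at 28 d. It stood higher at 28 d (log2 FC 0.57 ± 0.084, edgeR adjusted p = 4.73e-04) than at 7 d (log2 FC 0.30 ± 0.084, edgeR adjusted p = 0.00844). Ddit3, which encodes CHOP, a factor that promotes cell death, had 11.2, 12.9 and 13.2 CPM in sham, 24.2, 20.5 and 18.4 at 7 d and 24.6, 25.9 and 28.9 at 28 d. It was 2.13-fold above sham at 28 d (log2 FC 1.09 ± 0.13, edgeR adjusted p = 1.55e-04), and its log2 FC at 7 d was 0.76 ± 0.13 (edgeR adjusted p = 3.63e-04). Xbp1 had 91, 101 and 95.2 CPM in sham, 128, 125 and 155 at 7 d and 127, 105 and 189 at 28 d. Of the infarct libraries, 28 d library 3 was the highest and 28 d library 2 lay just above the sham values (log2 FC 0.50 ± 0.19, edgeR adjusted p = 0.0348 at 7 d, log2 FC 0.55 ± 0.19, edgeR adjusted p = 0.0332 at 28 d). The counts cover all Xbp1 transcripts and do not separate the spliced form. The Xbp1 calls were lost at 7 d without sham 1, 2 or 3 or 7 d library 1 or 3 (log2 FC 0.40 to 0.55, edgeR adjusted p 0.052 to 0.113). At 28 d they were lost without sham 1, 2 or 3 (log2 FC 0.50 to 0.58) or without 28 d library 3 (0.27, edgeR adjusted p = 0.0806).

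Of 5 outputs of the integrated stress response, 3 rose and 1 fell at 7 d, and 4 rose at 28 d. The 60% and 80% that rose stand next to 39.0% and 29.5% of all genes, and the 20% that fell at 7 d next to 35.4%. Ddit4 (REDD1), an inhibitor of the growth kinase mTORC1, was below sham at 7 d and above it at 28 d. It had 56.6, 61.6 and 58.5 CPM in sham, 38.2, 33.7 and 31.9 at 7 d and 76, 110.5 and 82.7 at 28 d. Its 3 groups did not overlap, with 7 d below sham (log2 FC -0.77 ± 0.14, edgeR adjusted p = 5.46e-04) and 28 d above it (log2 FC 0.61 ± 0.13, edgeR adjusted p = 0.00404). Trib3, a pseudokinase that restrains ATF4 and the kinase AKT, had 3.05, 3.4 and 2.87 CPM in sham, 9.29, 6.44 and 7.27 at 7 d and 4.51, 7.07 and 4.06 at 28 d. It was 2.46-fold above sham at 7 d (log2 FC 1.30 ± 0.24, edgeR adjusted p = 8.23e-04), and at 28 d library 2 stood above the others (log2 FC 0.74 ± 0.25, edgeR adjusted p = 0.0282). The 28 d call was lost without sham 1, 2 or 3 (log2 FC 0.68 to 0.80) or 28 d library 2 (0.46, edgeR adjusted p = 0.107). Chac1, which breaks down glutathione, had 1.31, 2.57 and 1.69 CPM in sham, 4.38, 3.17 and 2.5 at 7 d and 4.45, 4.53 and 3.3 at 28 d. Its counts were low, 15 to 28 in sham libraries and 52 to 91 at 7 d. One 7 d library lay within the sham range (log2 FC 0.85 ± 0.31, edgeR adjusted p = 0.0286), and all 28 d libraries lay above it (log2 FC 1.14 ± 0.31, edgeR adjusted p = 0.0111). Its 7 d call was lost without sham 1 or 3 or 7 d library 1 (log2 FC 0.61 to 0.78, edgeR adjusted p 0.0855 to 0.108).

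Sesn2, an antioxidant protein that also restrains mTORC1, had 6.46, 5.79 and 4.23 CPM in sham, 12.4, 10.8 and 8.95 at 7 d and 5.91, 7.57 and 7.3 at 28 d. All 7 d libraries were above sham (log2 FC 0.96 ± 0.20, edgeR adjusted p = 0.00134), and the 28 d libraries overlapped the sham range (log2 FC 0.34 ± 0.20, edgeR adjusted p = 0.176). Ppp1r15a (GADD34), the phosphatase subunit that reverses eIF2 phosphorylation, had 41.4, 42.9 and 42 CPM in sham, 48.6, 35.8 and 42.1 at 7 d and 54, 50.8 and 51.9 at 28 d. At 7 d the values lay on both sides of sham (log2 FC 0.0035 ± 0.10, edgeR adjusted p = 0.978), and at 28 d all were above (log2 FC 0.31 ± 0.10, edgeR adjusted p = 0.0280). Leaving out sham 1, 2 or 3 or 28 d library 1 or 2 ended that call (log2 FC 0.28 to 0.33, edgeR adjusted p 0.0504 to 0.0908). Ppp1r15a passed at 7 d with library size alone (log2 FC 0.34, edgeR adjusted p = 0.0132).

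The 5 amino acid and folate-cycle enzymes held the largest difference of any member at each time (Phgdh), with 4 higher and 1 lower at each time and no overlap with sham in any of them. Over all genes, 39.0% were higher and 35.4% lower at 7 d, and 29.5% and 25.6% at 28 d. The groups did not overlap in 80.8% of all genes at 7 d and 66.4% at 28 d. Phgdh, which takes the first step of serine synthesis from glucose, had 2.27, 1.2 and 1.61 CPM in sham, 22, 18.5 and 25.4 at 7 d and 15.7, 6.14 and 21 at 28 d. The fitted difference was 12.9-fold at 7 d (log2 FC 3.69 ± 0.45, edgeR adjusted p = 4.20e-05) and 8.41-fold at 28 d (log2 FC 3.07 ± 0.45, edgeR adjusted p = 4.63e-04), with 13 to 26 counts in sham libraries and 373 to 527 at 7 d. At 28 d library 2 was well below the other two but still above every sham library. Psat1, the next enzyme of that pathway, had 4.36, 3.86 and 6.34 CPM in sham, 14.5, 10.9 and 19.2 at 7 d and 13, 8.5 and 18.1 at 28 d. It shows the same order of the 28 d libraries, and its log2 FC was 1.61 ± 0.32 at 7 d (edgeR adjusted p = 0.00113) and 1.44 ± 0.32 at 28 d (edgeR adjusted p = 0.00416). Without 28 d library 3 the log2 FC at 28 d was 2.68 for Phgdh and 1.14 for Psat1, and both still passed (edgeR adjusted p = 4.89e-04 and 0.00936). Without the 3 libraries that held over 100 CPM of the fat cell gene Adipoq it was 1.84 for Phgdh and 0.79 for Psat1, resting on 1 library at 28 d, which is assumed to vary like the other groups (edgeR adjusted p = 3.31e-04 and 0.0319).

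Asns, which makes asparagine and whose promoter carries the CARE printed above, had 3.4, 3.49 and 3.38 CPM in sham, 21.6, 15.5 and 19.4 at 7 d and 13.3, 11.1 and 15.3 at 28 d. Sham values were nearly equal, and every infarct library lay far above them (5.49-fold at 7 d, log2 FC 2.46 ± 0.17, edgeR adjusted p = 1.19e-06, and 3.86-fold at 28 d, log2 FC 1.95 ± 0.17, edgeR adjusted p = 3.77e-05). Mthfd2, a mitochondrial enzyme of the folate cycle that is low in most adult tissues, had 3.93, 3.22 and 2.54 CPM in sham, 25.3, 16.6 and 17.5 at 7 d and 13.9, 19.4 and 15.8 at 28 d. It stood 6.14-fold above sham at 7 d (log2 FC 2.62 ± 0.23, edgeR adjusted p = 4.45e-06) and 5.07-fold at 28 d (log2 FC 2.34 ± 0.23, edgeR adjusted p = 6.53e-05). Shmt2, the mitochondrial enzyme that feeds serine into that cycle, had 60.5, 62.2 and 62.9 CPM in sham, 48.6, 43.4 and 43.3 at 7 d and 51.1, 55.7 and 48.4 at 28 d. It was the member of the group that fell (log2 FC -0.46 ± 0.078, edgeR adjusted p = 4.50e-04 at 7 d, log2 FC -0.26 ± 0.078, edgeR adjusted p = 0.0191 at 28 d). Shmt2 scaled by library size alone did not pass at 7 d (-0.12, edgeR adjusted p = 0.159) or at 28 d (-0.011, edgeR adjusted p = 0.903), and the 28 d call was also lost without sham 3 (-0.26, edgeR adjusted p = 0.0515) or 28 d library 3 (-0.21, edgeR adjusted p = 0.0505). On the gene-length scale the order of levels in sham hearts was Shmt2 (19.9 CPM per kb of exon), Asns (1.25), Psat1 (1.14), Mthfd2 (0.925) and Phgdh (0.680). At 7 d it was Shmt2 (14.5), Phgdh (8.83), Asns (6.89), Mthfd2 (5.68) and Psat1 (3.50 CPM per kb).

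**Figure D3:**
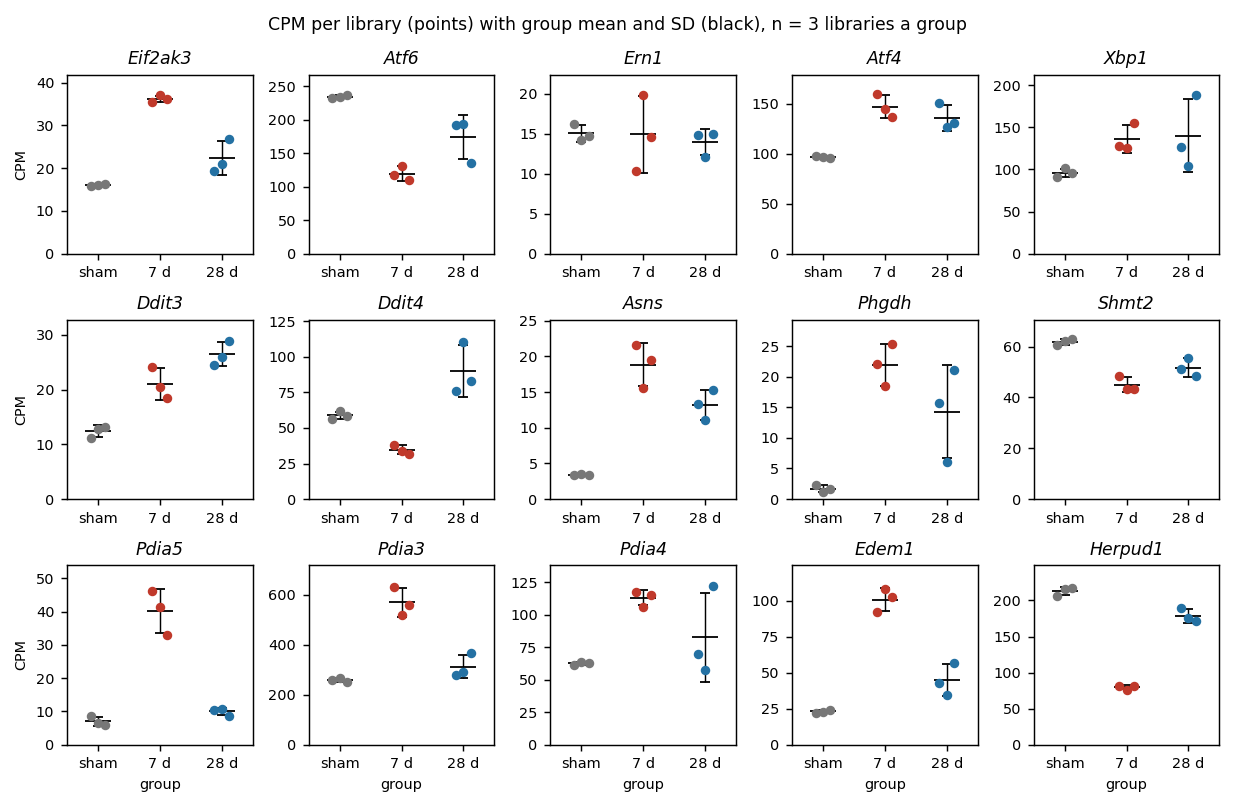
Points are CPM in each library for 15 members, grey in sham, red at 7 d and blue at 28 d, with the group mean and SD in black (n = 3 libraries) and axes that start at 0. Eif2ak3, Asns, Phgdh, Pdia5 and Edem1 have their highest group mean at 7 d, Atf6 and Herpud1 their lowest, and Ddit4 lies below sham at 7 d and above it at 28 d. Library 3 lies apart from the other 28 d libraries in Pdia4, Xbp1 and Atf6.

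Among the 11 chaperones and disulfide enzymes of the ER, 5 rose and 2 fell at 7 d, and 2 rose and 2 fell at 28 d. The 45.5% higher at 7 d lie near the 39.0% of all genes, and the 18.2% higher at 28 d below the 29.5% of all genes. At 7 d Pdia5, Pdia3 and Pdia4 lay furthest from sham, and at 28 d Ero1l did. Pdia5 had 8.55, 6.53 and 5.92 CPM in sham, 46.3, 41.4 and 33.1 at 7 d and 10.5, 10.8 and 8.69 at 28 d. It was 5.75-fold above sham at 7 d (log2 FC 2.52 ± 0.18, edgeR adjusted p = 1.17e-06) and near sham at 28 d, where library 3 fell within 0.2 CPM of the highest sham library (log2 FC 0.51 ± 0.18, edgeR adjusted p = 0.0337). The 28 d call was lost without sham 2 or 3 or 28 d library 1 or 2 (log2 FC 0.39 to 0.47, edgeR adjusted p 0.0735 to 0.128). Pdia3 (ERp57), which folds glycoproteins held by calreticulin and calnexin, had 259, 266 and 249 CPM in sham, 633, 517 and 561 at 7 d and 280.1, 291 and 366 at 28 d. All 7 d libraries were far above sham, 2.21-fold (log2 FC 1.14 ± 0.12, edgeR adjusted p = 1.69e-05), and the 28 d libraries lay just above sham without passing (log2 FC 0.27 ± 0.12, edgeR adjusted p = 0.0782). At 28 d Pdia3 passed without 28 d library 1 (log2 FC 0.34, edgeR adjusted p = 0.0396) and with library size alone (0.53, edgeR adjusted p = 0.00834), and without 28 d library 3 the difference was 0.15 (edgeR adjusted p = 0.245). Pdia6, an isomerase that also acts on IRE1, had 141, 135 and 142 CPM in sham, 251, 195 and 220.017 at 7 d and 118, 106 and 135 at 28 d. It rose at 7 d (log2 FC 0.67 ± 0.11, edgeR adjusted p = 4.41e-04) and did not pass at 28 d (log2 FC -0.22 ± 0.11, edgeR adjusted p = 0.126). Pdia4 had 61.3, 63.6 and 63 CPM in sham, 117, 106 and 115 at 7 d and 69.4, 57.1 and 122 at 28 d. It rose at 7 d (log2 FC 0.85 ± 0.23, edgeR adjusted p = 0.00690), and at 28 d library 3 stood at the 7 d level while libraries 1 and 2 lay on both sides of sham (log2 FC 0.40 ± 0.23, edgeR adjusted p = 0.161). Without 28 d library 2 it passed at 28 d (log2 FC 0.61, edgeR adjusted p = 0.0279), and without library 3 the difference was 0.014 (edgeR adjusted p = 0.915).

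Ero1l, the oxidase that recharges the disulfide isomerases, had 22.9, 19.1 and 21.3 CPM in sham, 27.1, 33.3 and 30.7 at 7 d and 33.2, 35.7 and 39.9 at 28 d. It rose at 7 d (log2 FC 0.53 ± 0.11, edgeR adjusted p = 0.00178) and at 28 d (log2 FC 0.78 ± 0.11, edgeR adjusted p = 4.10e-04), with no overlap with sham at either time. The paired lectin chaperones of glycoproteins did not move alike. Calr (calreticulin), the most abundant member per length in every group (174, 203 and 149 CPM per kb in sham, 7 d and 28 d), had 497, 502 and 503 CPM in sham, 634, 515 and 607 at 7 d and 434, 391 and 460.4 at 28 d. It did not pass against sham at 7 d (log2 FC 0.23 ± 0.10, edgeR adjusted p = 0.0712) or at 28 d (log2 FC -0.22 ± 0.10, edgeR adjusted p = 0.0898). Canx (calnexin), its partner in the membrane, had 443, 422 and 452 CPM in sham, 305, 317 and 305 at 7 d and 353, 328 and 324 at 28 d. All infarct libraries were below sham (log2 FC -0.51 ± 0.078, edgeR adjusted p = 2.15e-04 at 7 d, log2 FC -0.39 ± 0.078, edgeR adjusted p = 0.00232 at 28 d), although with library size alone the 28 d difference did not pass (-0.14, edgeR adjusted p = 0.0998). Calr passed at 7 d without 7 d library 2 or 28 d library 3 (log2 FC 0.22 to 0.31), and fell at 28 d without 28 d library 3 (-0.28, edgeR adjusted p = 0.0466). With library size alone it rose at 7 d (0.56, edgeR adjusted p = 0.00102), as it did with limma voom, the stricter filter and only the libraries compared.

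Hyou1 (GRP170), a large chaperone that serves the ER Hsp70, had 94.9, 98.8 and 91.7 CPM in sham, 67.7, 70.004 and 68.4 at 7 d and 66.4, 66.3 and 90.8 at 28 d. All infarct libraries were below sham (log2 FC -0.47 ± 0.12, edgeR adjusted p = 0.00451 at 7 d, log2 FC -0.35 ± 0.12, edgeR adjusted p = 0.0276 at 28 d), with 28 d library 3 close to the lowest sham value. With library size alone neither difference passed (-0.14 and -0.096, edgeR adjusted p = 0.401 and 0.574), and the 28 d call was lost without sham 1 or 2 or 28 d library 1 or 2 (log2 FC -0.36 to -0.28, edgeR adjusted p 0.0646 to 0.0945). Creld2, a classic ATF6 target, had 19.9, 19.8 and 17.6 CPM in sham, 24.5, 24.1 and 25.7 at 7 d and 21.6, 20.6 and 32.6 at 28 d. All infarct libraries were above sham, but neither comparison passed (log2 FC 0.38 ± 0.16, edgeR adjusted p = 0.0581 at 7 d, log2 FC 0.39 ± 0.16, edgeR adjusted p = 0.0702 at 28 d). Manf, a secreted factor that protects cells from ER stress, had 53.3, 59.7 and 60.7 CPM in sham, 59.3, 53 and 58.1 at 7 d and 44.9, 39.3 and 68.8 at 28 d. The 7 d values overlapped sham (log2 FC -0.027 ± 0.18, edgeR adjusted p = 0.897), and at 28 d libraries 1 and 2 lay below and library 3 above every sham library (log2 FC -0.18 ± 0.18, edgeR adjusted p = 0.409). Sdf2l1, a cofactor of the ER Hsp70, had 7.24, 7.45 and 6.25 CPM in sham, 11, 8.71 and 10.8 at 7 d and 7.57, 5.89 and 12.4 at 28 d. The 7 d libraries were above sham (log2 FC 0.54 ± 0.25, edgeR adjusted p = 0.0728), and at 28 d the values again spread on both sides (log2 FC 0.31 ± 0.25, edgeR adjusted p = 0.325). Creld2 passed at 7 d without 28 d library 2 or 3 (log2 FC 0.38 in both) and at 28 d without 28 d library 1 or 2 (0.47 to 0.50), while without 28 d library 3 its 28 d difference was 0.14 (edgeR adjusted p = 0.246). Sdf2l1 passed at 7 d without 28 d library 2 or 3 (0.54 in both), and its 28 d difference was -0.053 without 28 d library 3 (edgeR adjusted p = 0.823). Creld2 rose at 7 d and 28 d (0.71 and 0.64) and Sdf2l1 at 7 d (0.88) when scaled by library size alone. Both also rose at 7 d with limma voom and with only the libraries compared, and Creld2 with the stricter filter.

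Of the 5 members of ER-associated degradation (ERAD), which sends misfolded proteins back to the cytosol for destruction, 2 rose, 1 fell and 2 did not pass, at each time. The 40% that rose lie near the 39.0% of all genes at 7 d and above the 29.5% at 28 d. The 20% that fell lie below the 35.4% and 25.6% of all genes. Edem1, which trims mannose from misfolded glycoproteins to mark them, had 22.1, 22.9 and 23.9 CPM in sham, 91.9, 108 and 102 at 7 d and 42.9, 34.4 and 56.8 at 28 d. It was 4.38-fold above sham at 7 d (log2 FC 2.13 ± 0.16, edgeR adjusted p = 1.93e-06) and 1.95-fold at 28 d (log2 FC 0.96 ± 0.16, edgeR adjusted p = 9.33e-04). Selenos (Vimp), a selenoprotein that ties the export machinery to the membrane, had 27.4, 26.9 and 24.7 CPM in sham, 51.4, 45.2 and 49.7 at 7 d and 32.8, 33.9 and 37.4 at 28 d. It was 1.85-fold above sham at 7 d (log2 FC 0.89 ± 0.086, edgeR adjusted p = 8.97e-06), and its log2 FC at 28 d was 0.40 ± 0.087 (edgeR adjusted p = 0.00382). Herpud1, a membrane protein that assembles the export complex, had 207, 215 and 218 CPM in sham, 81.1, 76.4 and 80.7 at 7 d and 189.998, 176 and 171 at 28 d. It was 2.69-fold lower at 7 d, the largest fall of any member (log2 FC -1.43 ± 0.074, edgeR adjusted p = 2.59e-07), and close under sham at 28 d (log2 FC -0.25 ± 0.073, edgeR adjusted p = 0.0148). The 28 d difference was -0.008 with library size alone (edgeR adjusted p = 0.921). Herpud1 is the member whose printed promoter holds both ERSE-II and CARE, while CARE members Asns, Chac1 and Trib3 rose at 7 d. The ERSE members shared no direction, with Pdia6 higher, Canx lower and Calr, Creld2 and Syvn1 not passing at 7 d.

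The ligase pair of ERAD did not pass at either time. Sel1l, the adaptor, had 134, 131 and 139 CPM in sham, 135, 159 and 146 at 7 d and 139.6, 144 and 149 at 28 d. Its differences were small (log2 FC 0.12 ± 0.079, edgeR adjusted p = 0.182 at 7 d, log2 FC 0.10 ± 0.079, edgeR adjusted p = 0.323 at 28 d), and only library size alone made them pass (0.46 and 0.35, edgeR adjusted p = 0.00114 and 0.00888). Syvn1 (HRD1), the ubiquitin ligase itself, had 40.045, 45.5 and 41.7 CPM in sham, 40.7, 43.3 and 45.5 at 7 d and 38.8, 43.4 and 59.5 at 28 d. 28 d library 3 stood well above the sham range, and the other infarct libraries lay in or close to it (log2 FC 0.025 ± 0.14, edgeR adjusted p = 0.884 at 7 d, log2 FC 0.16 ± 0.14, edgeR adjusted p = 0.381 at 28 d). Fgf21, the hormone released in the integrated stress response of muscle and liver, had 2 counts over the sham libraries, 4 over the 7 d libraries and 0 over the 28 d libraries. That is under the filter, so it was not tested, and 0 counts at 28 d allow a level of up to 0.0619 CPM, taking 3 counts as the floor over the group. Its printed CARE was thus in the promoter of a gene near the limit of detection at this depth.

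The direct comparison of 28 d with 7 d hearts asks which of these levels differed between the early and the late infarct. Pdia5, Pdia3, Pdia6 and Calr, 4 of the 11 ER chaperones and disulfide enzymes, were lower at 28 d than at 7 d (36.4%, against 26.1% of all genes), and the other 7 did not pass. PERK and the ERAD members Edem1 and Selenos were also lower, while Ddit4, Herpud1 and ATF6 were higher. In all 6 members were higher, 10 were lower and 18 did not pass, where 29.1% of all genes were higher and 26.1% were lower. The members higher (17.6%) stand below that background and those lower (29.4%) close to it. The share in either direction was 47.1%, against 55.2%, and the median log2 FC was -0.13, against 0.033 over all genes. Groups did not overlap in 17 of 34 members, 50.0% against 59.8%. Scaling by library size alone gave 3 higher and 12 lower.

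The largest difference between the infarct times was in Pdia5, 4.03-fold lower at 28 d (log2 FC -2.01 ± 0.17, edgeR adjusted p = 1.51e-05). Edem1 (log2 FC -1.17 ± 0.15, edgeR adjusted p = 1.94e-04), Pdia6 (log2 FC -0.89 ± 0.11, edgeR adjusted p = 1.64e-04) and Pdia3 (log2 FC -0.87 ± 0.12, edgeR adjusted p = 2.56e-04) were also lower. In these the 7 d and 28 d libraries listed above do not overlap. Eif2ak3 (log2 FC -0.69 ± 0.11, edgeR adjusted p = 7.07e-04), Selenos (log2 FC -0.49 ± 0.084, edgeR adjusted p = 9.09e-04) and Calr (log2 FC -0.45 ± 0.10, edgeR adjusted p = 0.00464) fell by less, again with no overlap. Sesn2 (log2 FC -0.63 ± 0.19, edgeR adjusted p = 0.0183), Asns (log2 FC -0.51 ± 0.15, edgeR adjusted p = 0.0169) and Eif2ak4 (log2 FC -0.38 ± 0.13, edgeR adjusted p = 0.0367) were called lower, but not in every setting. Asns lost its call without 7 d library 1 or 3 or 28 d library 2 (log2 FC -0.49 to -0.40), Sesn2 without 7 d library 1 or 28 d library 1 (-0.53 to -0.51), and Eif2ak4 without sham 1 or 2, 7 d library 2 or 28 d library 1 or 2 (-0.38 to -0.27). Sesn2 and Eif2ak4 also lost it with limma voom, and Eif2ak4 with the sham libraries summed to 1.

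Of the members higher at 28 d than at 7 d, Ddit4 (log2 FC 1.38 ± 0.14, edgeR adjusted p = 3.72e-05), Herpud1 (log2 FC 1.17 ± 0.074, edgeR adjusted p = 3.08e-06) and Atf6 (log2 FC 0.54 ± 0.13, edgeR adjusted p = 0.00711) held under the 19 alternatives tried. Atf5 (log2 FC 0.27 ± 0.082, edgeR adjusted p = 0.0196), Ddit3 (log2 FC 0.33 ± 0.12, edgeR adjusted p = 0.0414) and Ppp1r15a (log2 FC 0.31 ± 0.10, edgeR adjusted p = 0.0277) were called with smaller differences. Atf5 lost the call without 7 d library 2 or 28 d library 2 (log2 FC 0.21 to 0.24), and Ppp1r15a without 7 d library 2 or 3 or 28 d library 1 (0.20 to 0.31). Ddit3 lost it in 13 of the 19 alternatives, among them without sham 2 or 3, 7 d library 2 or 3 or 28 d library 2 or 3 (0.24 to 0.35). Its call also ended with limma voom, without the filter and with the replicate block. Atf5, Ddit3 and Ppp1r15a all lost the call with library size alone, with only the libraries compared and with the sham libraries summed to 1. Among the folate and serine enzymes, no difference between the times passed for Phgdh (log2 FC -0.62 ± 0.36, edgeR adjusted p = 0.169), Psat1 (log2 FC -0.17 ± 0.29, edgeR adjusted p = 0.648), Mthfd2 (log2 FC -0.28 ± 0.20, edgeR adjusted p = 0.263) or Shmt2 (log2 FC 0.20 ± 0.078, edgeR adjusted p = 0.0529). Phgdh passed without 28 d library 3 (-1.01, edgeR adjusted p = 0.0232), and Shmt2 without 7 d library 1 or 28 d library 3 (0.25 to 0.26). Trib3 (log2 FC -0.56 ± 0.23, edgeR adjusted p = 0.0648) was lower without 28 d library 2 (-0.84, edgeR adjusted p = 0.00947), and Ero1l (log2 FC 0.26 ± 0.11, edgeR adjusted p = 0.0687) was higher without 7 d library 2 (0.33, edgeR adjusted p = 0.0445).

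One of the late hearts stood apart, over all genes as well as in the members. Library 3 at 28 d differed from libraries 1 and 2 by 67.4 and 44.8 times sampling noise, and those 2 differed from each other by 29.7 times. It was the highest 28 d library for 22 of 34 members (64.7%), against 39.1% of all tested genes, and for 9 of 11 ER chaperones and disulfide enzymes. At 7 d library 1 was the highest for 20 of 34 members (58.8%), against 42.4% of all genes, and for 7 of those 11. Relative to the mean of 28 d libraries 1 and 2, library 3 stood at 1.92 times in Pdia4, 1.84 times in Sdf2l1, 1.63 times in Xbp1 and in Manf, 1.54 times in Creld2 and 1.47 times in Edem1. The ratios of 1.92 in Phgdh and 1.69 in Psat1 include a low library 2. Atf6 stood at 0.702 of that mean. Left out, it took the log2 FC of Manf at 28 d against sham from -0.18 to -0.46 (edgeR adjusted p = 0.00278) and that of Pdia6 from -0.22 to -0.32 (edgeR adjusted p = 0.0392), and Hyou1 from -0.35 to -0.52 (edgeR adjusted p = 2.20e-04). Against 7 d, without it, Pdia4 (-0.84, edgeR adjusted p = 4.13e-05), Manf (-0.43, edgeR adjusted p = 0.00281) and Sdf2l1 (-0.595, edgeR adjusted p = 0.0126) were lower. This library also had the lowest cardiomyocyte sum of the late group (32840 CPM, against 54332 and 42006), the highest fibroblast sum (11869 CPM, against 5967 and 7929), and Schwann cell markers at 159 CPM, against 8.8 and 11.5. B and plasma cell markers summed to 87.1, 15.4 and 99.998 CPM in the 28 d libraries, and adipocyte markers to 1067, 4.5 and 849 CPM, so those do not set library 3 apart from library 1. The part of these cells in the members' levels was not tested. The median coefficient of variation over the members was 4.85% in sham, 10.2% at 7 d and 15.4% at 28 d, against 6.07, 10.4 and 13.9% over all genes.

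Other genes of the same pathways were taken from lists written with earlier results of these data known, and their counts stand next to 39.0% of all genes higher and 35.4% lower at 7 d, and 29.5% and 25.6% at 28 d. At 7 d, 17 of 22 further ER chaperones and folding enzymes rose and 3 fell (median log2 FC 0.55), and at 28 d 9 rose and 2 fell (0.20). Those that rose most were Txndc5 (log2 FC 2.16 ± 0.11), a disulfide isomerase linked to fibroblast activation, Fkbp11 (log2 FC 2.12 ± 0.23) and Ppib (log2 FC 1.74 ± 0.11), which isomerise proline, and the ER peroxiredoxin Prdx4 (log2 FC 1.91 ± 0.10). The 3 that fell at 7 d, named after their values were seen, were Hspa5 (log2 FC -1.08 ± 0.11), which encodes BiP, the ER Hsp70 and the usual marker of the unfolded protein response, Dnajb9 (log2 FC -0.63 ± 0.093) and Tmx1 (log2 FC -0.50 ± 0.15). Hspa5 stood at 911 ± 12.6 CPM in sham, 429.6 ± 11.5 CPM at 7 d, 549.6 ± 77.7 CPM at 28 d (means, n = 3 libraries) and also fell at 28 d (log2 FC -0.73 ± 0.11, edgeR adjusted p = 5.19e-04). Like Atf6, Herpud1, Canx and Hyou1 among the members, it fell at 7 d, when the 4 isomerases Pdia3 to Pdia6 rose. Of 19 genes of the translocon and signal peptidase, through which proteins enter the ER, 14 rose and 1 fell at 7 d (median 0.54), and 7 rose and 2 fell at 28 d (0.15). Sec61b (log2 FC 1.92 ± 0.16) and Sec61a1 (log2 FC 1.54 ± 0.10), subunits of the channel, and Tram1 (log2 FC 1.25 ± 0.079) rose at 7 d. Srp54a, the 1 that fell (log2 FC -1.65 ± 0.28), has near-identical copies, so its value is uncertain.

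Of 21 further ERAD genes, 10 were higher and 8 lower at 7 d (median 0.24), shares of 47.6% and 38.1% that lie near those of all genes (39.0% and 35.4%). At 28 d 8 were higher and 2 lower (0.037), 38.1% and 9.52% against 29.5% and 25.6%. Edem2 (log2 FC 1.73 ± 0.15) and Os9 (log2 FC 1.57 ± 0.10), which act on glycoproteins like Edem1, rose, as did Aup1 (log2 FC 0.75 ± 0.067), while the ligase Rnf139 (log2 FC -0.88 ± 0.089) fell. Of 21 other sensors, eIF2 factors and transcription factors, 13 rose and 4 fell at 7 d (0.43), and 9 rose and 3 fell at 28 d (0.17). Nupr1, a stress-induced chromatin protein, was the furthest from sham (log2 FC 3.81 ± 0.15, log2 FC 3.44 ± 0.15, edgeR adjusted p = 1.08e-06 at 28 d), and Creb3l1, an ATF6-like factor that drives collagen secretion, rose at 7 d (log2 FC 1.65 ± 0.21) and did not pass at 28 d (log2 FC 0.16 ± 0.22, edgeR adjusted p = 0.556). Eif2b4, a subunit of the exchange factor that eIF2 phosphorylation blocks, fell (log2 FC -1.31 ± 0.11), and Creb3 rose (log2 FC 1.08 ± 0.10).

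Of 21 other genes of amino acid transport, synthesis and the folate cycle, 13 rose and 5 fell at 7 d (median 1.54), and 12 rose and 5 fell at 28 d (0.64). Pycr1, which completes proline synthesis (log2 FC 3.62 ± 0.15), the transporter Slc1a4 (log2 FC 3.08 ± 0.24) and the mitochondrial folate enzyme Mthfd1l (log2 FC 2.86 ± 0.33) rose at 7 d. Got1, a transaminase of the malate-aspartate shuttle that is abundant in cardiomyocytes, fell (log2 FC -2.86 ± 0.18). Of 6 secreted or signalling targets of ATF4, 4 rose and 1 fell at 7 d (0.81), and 5 rose and 1 fell at 28 d (0.53). Gdf15, a stress hormone, was further from sham at 28 d (log2 FC 4.62 ± 0.20, edgeR adjusted p = 1.10e-06) than at 7 d (log2 FC 3.61 ± 0.20), Jdp2 (log2 FC 1.39 ± 0.17) and Stc2 (log2 FC 1.17 ± 0.22) rose at 7 d, and the lipoprotein receptor Vldlr fell (log2 FC -2.49 ± 0.16).

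The cytosolic aminoacyl-tRNA synthetases, many of which ATF4 is known to induce, had medians close to 0. At 7 d 2 of 20 rose and 8 fell (median -0.11), and at 28 d 1 rose and 5 fell (-0.054). The shares that fell, 40% and 25%, lie near the 35.4% and 25.6% of all genes, and the shares that rose, 10% and 5%, lie below the 39.0% and 29.5% of all genes. Farsb (log2 FC -0.87 ± 0.084), Kars (log2 FC -0.81 ± 0.082), Dars (log2 FC -0.80 ± 0.073) and Wars (log2 FC -0.65 ± 0.093) were the furthest below sham. The mitochondrial unfolded protein response list, mostly proteases and chaperones of mitochondria, stood lower. There 12 of 13 fell at 7 d (median -1.50) and 10 of 13 at 28 d (-0.56). Dnaja3 (log2 FC -2.41 ± 0.17), Hspd1 (log2 FC -2.29 ± 0.18), Hspa9 (log2 FC -2.13 ± 0.16) and Oma1 (log2 FC -1.84 ± 0.16) led it, and the 1 gene that rose at 7 d was the protease Htra2 (log2 FC 0.50 ± 0.11), named after its value was seen. Cardiomyocyte markers fell at both times (6 of 6), like this list, but so did 4 of 5 endothelial markers. Of 5 smooth muscle and pericyte markers, 3 fell at both times, 1 rose at 7 d and 2 rose at 28 d. Fibroblast markers rose at both times (6 of 6). More of the 22 further ER chaperones and folding enzymes rose than fell at both times. Of the 11 members in that class more rose than fell at 7 d, and 2 rose and 2 fell at 28 d. Monocyte and macrophage markers (6 of 6 at 7 d, 5 of 6 at 28 d) and T and NK cell markers (4 of 4 at both times) rose as well. Their part in these counts was not tested.

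**Figure D4:**
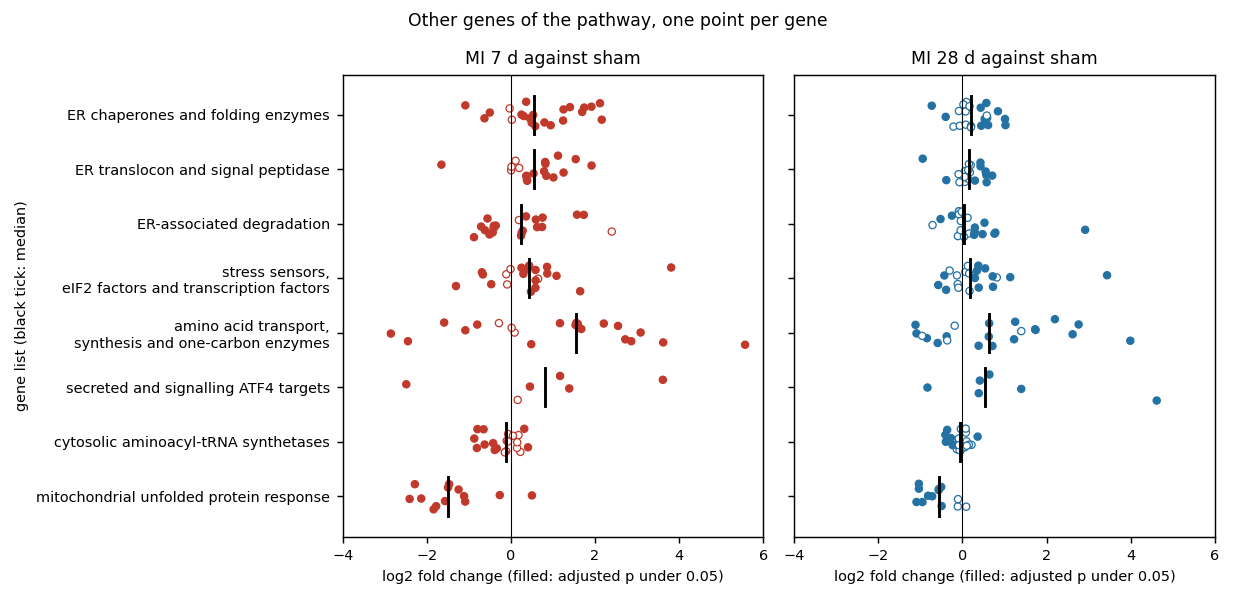
Each point is a tested gene of a pathway list outside the 35 members, placed by its log2 fold change against sham at 7 d (left, red) and 28 d (right, blue) and filled where the edgeR adjusted p is under 0.05. Black ticks are list medians, from -1.50 (mitochondrial unfolded protein response) to 1.54 (amino acid and folate genes) at 7 d and from -0.56 to 0.64 at 28 d.

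On GRCm38, the members whose levels differed most are protein-coding genes on different chromosomes or far apart. Phgdh lies on chr3:98313170-98339990, Pdia5 on chr16:35397312-35490873, Herpud1 on chr8:94386438-94395377 and Ddit4 on chr10:59949669-59951834. Chromosome 6 holds Asns (chr6:7675169-7693254), Mthfd2 (chr6:83305691-83325908), Eif2ak3 (chr6:70844515-70905245) and Edem1 (chr6:108828641-108859356). Exons of 9 members (Atf5, Ddit3, Eif2ak3, Manf, Pdia3, Pdia6, Ppp1r15a, Shmt2 and Syvn1) overlap those of a gene on the other strand, by at most 221 bases. The strand setting of the counting is not given in the sources used here, so reads from those stretches cannot be assigned to a strand.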

How the data were processed

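RNA of 9 mouse hearts was measured by bulk RNA sequencing, with 3 mice in each group. Per the labels' protocols, RNA was taken with TRIzol and the KAPA RNA HyperPrep kit turned total RNA into libraries. Per the submitters' processing notes, reads went through Trim Galore, STAR and featureCounts on mm10, with no versions given. The authors deposited whole-number read counts per gene symbol, not normalized. The annotation, the strand setting and the handling of reads with several matches were not given in the labels or notes used here.

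Groups came from the sample titles. The counts were fitted in R 4.3.3 with edgeR 4.0.16 as a means model over all 9 libraries, after filterByExpr (minimum count 10, minimum total 15) and TMM scaling. Each comparison was a two-sided quasi-likelihood F test, adjusted by Benjamini-Hochberg over 14347 genes, with 0.05 as the threshold. Standard errors were taken as |log2 fold change| divided by the root of F. CPM are relative to the TMM-scaled total of the tested genes. These standard errors carry the spread between libraries that edgeR estimated. The floor given for Fgf21 covers counting error only, and PCR reads without molecular identifiers are not independent molecules. Gene positions and exon lengths came from GENCODE on GRCm38, the same assembly as mm10, and promoters from RefSeq on GRCm38.

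The members and all lists were chosen with earlier results of these data known. All members are named. From each other list up to 4 genes are named, those past the threshold and with a mean log2 CPM of at least 1 that lay furthest from sham at 7 d. On simulated counts, at 7 d against sham, 76% of 2-fold and 94% of 4-fold changes were called, with 5 false calls among 14133 genes. At 28 d against sham these were 79%, 94% and 13 of 14159, and at 28 d against 7 d 73%, 98% and 9 of 14157. The simulation changed a small set of well-counted genes in both directions and left all others equal between groups. In the data 74.4% of genes were called at 7 d against sham, so these rates may not carry over.

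Of 19 alternatives, 10 changed the scaling, filter, tool or set of libraries (DESeq2 1.42.0, limma 3.58.1 voom with group weights, size factors as in DESeq2, scaling by library size alone, leaving out the filter, a stricter one (a mean of 2 CPM and at least 1 CPM in 3 libraries), only the libraries compared, a replicate block, no libraries over 100 CPM of Adipoq, and sham summed to 1) and 9 left out 1 library each. The sham libraries differed by 1.64 to 1.76 times sampling noise (chi-square per degree of freedom), the 7 d libraries by 17.9 to 27.8 times and the 28 d libraries by 29.7 to 67.4 times, and all were kept as separate mice.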

Additional observations from a re-analysis of the deposited data

Results flagged for a closer look

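Ddit4, the mTORC1 inhibitor REDD1, was called in opposite directions at the 2 times after infarction. Every 7 d library (38.2, 33.7 and 31.9 CPM) lay below the sham libraries (56.6, 61.6 and 58.5 CPM), and every 28 d library (76.0, 110.5 and 82.7 CPM) lay above them. The difference between both effects, which is the comparison of 28 d with 7 d, was a log2 FC of 1.38 ± 0.14 (edgeR adjusted p = 3.72e-05). This difference passed in all 19 alternatives, as did the fall at 7 d against sham. The rise at 28 d against sham held in 18 and was lost with the sham libraries summed to 1. The time of day at which hearts were taken is not given in the sources used here.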

How the results depend on the processing

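Over 19 alternatives and 34 tested members, 604 of 646 values at 7 d against sham kept their direction and side of the threshold, 15 no longer passed and 27 newly passed. At 28 d against sham these were 578, 51 and 17 of 646, and at 28 d against 7 d 589, 39 and 17 with 1 reversed. Members with the same call in every alternative numbered 22, 11 and 19. The reversed value is Xbp1 at 28 d against 7 d without the libraries rich in Adipoq (log2 FC -0.28, edgeR adjusted p = 0.0432, against 0.045), a fit that leaves 1 library at 28 d and 2 at 7 d. Sign changes between values that did not pass were counted as kept: 55 of 1938 values in 14 genes, the largest 0.324 in size (Ern1 at 7 d, library size alone). They include Pdia4 at 28 d, which went from 0.40 to -0.15 without the libraries rich in Adipoq. The count of members higher at 28 d against sham was 7 with the sham libraries summed to 1, which leaves 1 sham sample, instead of 17. The count lower at 28 d was 0 with library size alone and 0 with sham summed, instead of 5, and 3 to 7 when 1 library was left out (3 without sham 3, where Atf6 and Shmt2 were lost, and 7 without 28 d library 3). Members higher at 28 d than at 7 d numbered 3 with library size alone, 3 with only the libraries compared and 3 with sham summed, instead of 6, and 4 to 7 with 1 library left out. Apart from what each setting changes by construction, the cause was not tested. Leaving out 1 library gave 17 to 23 members higher and 6 lower at 7 d, 13 to 17 higher at 28 d, and 8 to 14 lower at 28 d than at 7 d.

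The replicate numbers in the titles are not said to pair mice. Deviations of libraries with the same number correlated across genes at -0.013 to 0.023 between 7 d and sham. Between 28 d and sham the values were -0.041 to -0.0041, and between 28 d and 7 d -0.060, 0.28 and 0.30. Libraries with different numbers correlated at -0.59 to 0.45 between 28 d and 7 d. Deviations from the mean of a small group depend on each other, so these values cannot decide whether mice were paired. With the number as a replicate block, all-gene calls were 10583, 7688 and 7785, against 10676, 7906 and 7920. The members' counts stayed at 19 and 6 at 7 d and 17 and 5 at 28 d, and were 5 higher (Ddit3 lost) and 11 lower (Phgdh gained) at 28 d against 7 d. Depth limits Fgf21 (0 to 3 counts a library) and, in sham hearts, Chac1 and Phgdh, with 13 to 28 counts a library.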
